A study of Mus musculus with 56 samples.

Results

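Regulatory T cells were depleted in mice with a defect of skeletal muscle, and the genes expressed 7 days later by the monocytes and macrophages sorted from the injured muscle were compared with those of control mice. The comparison took its libraries by their labels alone. Its members are the 6 libraries labelled as Treg-depleted or control muscle at day 7, 3 of each, out of 56 in the series, and all 12907 genes with enough counts were tested. The depleted mice were Foxp3(DTR/GFP) animals (FDG), in which the Foxp3 locus drives the diphtheria toxin receptor and a green fluorescent protein. The control mice were wild-type C57BL/6J animals. Both groups received 20 ng of diphtheria toxin (DT) per g of body weight into the peritoneum, from 2 days before injury, daily until injury and every 2 days for 1 week after it, so the toxin was shared and the genotype was not. Genotype and loss of Treg cells therefore cannot be told apart in this comparison. All mice were 10 weeks old, each carried 1 injury, and the injury here was a volumetric muscle loss defect, in which a piece of muscle is cut out. Cells of the same sort taken at day 4 (3 libraries per group), from a skull defect at day 7 (5 per group) and from a skin punch wound at day 7 (4 per group) served to show where the response of muscle at day 7 differed. The labels do not name the surface markers of the sort and do not say that libraries came from separate animals, so the p-values measure the spread between libraries.

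Regulatory T cells are a suppressive class of CD4 T cells that accumulate in injured muscle and restrain other lymphocytes. Macrophages in a muscle wound first clear debris and later support fibre repair, and their gene expression is shaped by the cytokines that lymphocytes release. Interferon-gamma raises guanylate-binding proteins and antigen presentation, type I interferon raises antiviral genes, and interleukin-4 and interleukin-13, acting through STAT6, raise the genes of alternative activation. Resident and perivascular macrophages are known for a scavenging and haem-handling programme that infiltrating monocytes lack at first.

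The libraries held 3439690 to 5843420 counts and between 18681 and 21156 genes with a count. Levels below are CPM, counts relative to the library size after TMM scaling, and the 3 values of a group are given in the order of replicates 1, 2 and 3. Foxp3 (chromosome X, 7573644 to 7595245, GENCODE M21, GRCm38) had 1, 0 and 0 counts in the depleted libraries and 4, 0 and 0 in the controls, too few to test, and the sorted cells are not T cells, so it checks the labels neither way. Macrophage identity was clear in both groups: all 12 macrophage and monocyte markers were tested and their summed level was 11342 to 11560 CPM in depleted and 13745 to 17319 CPM in control libraries. Csf1r†, the receptor of macrophage colony-stimulating factor, was 534, 517 and 626 CPM against 533, 619.9 and 635 CPM and was not called (log2 change -0.09, SE 0.14, adjusted p = 0.77). The level of the ribosomal RNA gene Rn18s-rs5, which poly(A) priming should mostly leave out, was 22098, 46905 and 16276 CPM in the depleted and 5916, 9928 and 9377 CPM in the control libraries (exact two-sided permutation p = 0.1, the smallest that 3 against 3 allows). It moved with the groups without overlap, so lists and genes whose calls end when its log2 level enters the model as a covariate are named below, with the log2 change in that model for single genes, and its part in them was not tested further. Depleted 2 held the most of it and lay apart from the other depleted libraries on the second principal component, which carried 17.9% of the variance after 47.9% on the first, where the groups separated.

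Of the 12907 genes, 603 were higher (4.67%) and 506 lower (3.92%) in the depleted libraries at an adjusted p under 0.05 (edgeR quasi-likelihood test, Benjamini-Hochberg adjustment), or 8.59% in all. At least 2-fold changes made up 381 of the higher and 246 of the lower genes, and at least 4-fold changes 181 and 43. The groups did not overlap for 594 of the higher and 499 of the lower genes. Such counts follow largely from the calls themselves, and the share over all genes tested is not given here. The median change over all genes was -0.01 on the log2 scale. Without depleted 2, 982 genes were called, and 803 of them were among the 1109. With the Rn18s-rs5 covariate 419 were called, 342 of them among the 1109.

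**Figure D1:**
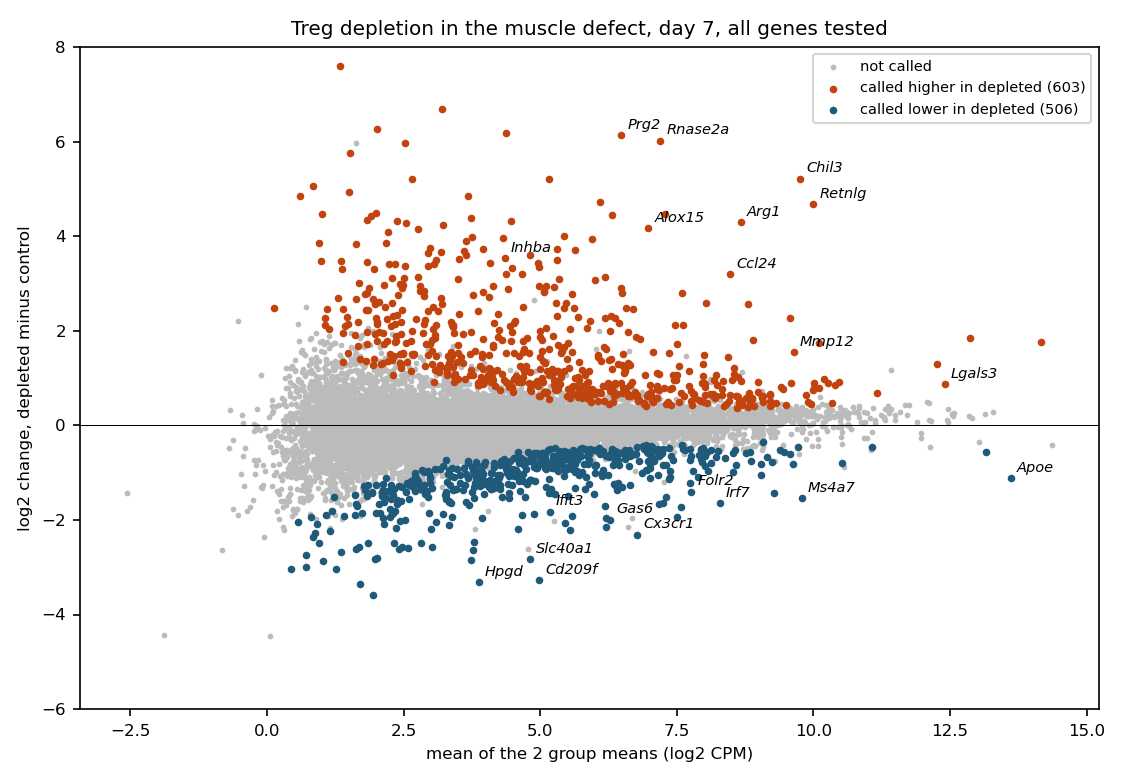
Each point is 1 of the 12907 genes tested: its mean level over both groups (log2 CPM, x axis) against its log2 change in depleted minus control muscle macrophages at day 7 (y axis), with called genes in red (603 higher) and blue (506 lower). Called changes of over 4 on the log2 scale were all upward, led at high level by Chil3, Prg2, Rnase2a, Retnlg and Arg1, while Cx3cr1, Hpgd and Cd209f lay among the lower genes.

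Genes of alternative activation rose as a group. Of 32 tested, 22 were higher and 1 lower, with a median log2 change of 1.44, beside 4.67% and 3.92% of all genes and a median of -0.01. Arg1 (chromosome 10, 24915221 to 24927484), which encodes the arginase that turns arginine into ornithine and urea, stood at 731, 749 and 839 CPM in the depleted libraries and at 37.2, 53.6 and 25.7 CPM in the controls (log2 change 4.30, SE 0.54, adjusted p = 0.000789). Chil3† (chromosome 3, 106147554 to 106167564), which encodes the secreted chitinase-like protein Ym1, belongs to the list of monocyte genes below and not to these 32. Its level was 1713, 1837 and 1525 CPM against 43.8, 34.9 and 58.8 CPM (log2 change 5.22, SE 0.27, adjusted p = 4.78e-09). The depleted values of both genes lay close together and far above every control. The eotaxin gene Ccl24, whose product draws eosinophils, was 498, 566 and 859 CPM against 85.5, 59.3 and 64.5 CPM (log2 change 3.20, SE 0.23, adjusted p = 1.88e-07). Alox15, the lipoxygenase of alternatively activated macrophages and eosinophils, was 119.8, 352 and 243 CPM against 14.7, 11.9 and 12.8 CPM (log2 change 4.17, SE 0.30, adjusted p = 4.07e-07). Here depleted 2 was the highest library and depleted 1 the lowest, but all lay above the controls. Pdcd1lg2, which encodes the PD-1 ligand PD-L2, was 56.6, 45.9 and 68.7 CPM against 6.40, 3.49 and 5.97 CPM (log2 change 3.44, SE 0.46, adjusted p = 0.000217).

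The chemokine gene Ccl17, whose product binds CCR4 on T cells, changed by 2.59 (adjusted p = 0.0106), and the receptor kinase gene Flt1 by 2.42 (adjusted p = 0.000289). Feedback genes known to follow STAT signals, and a transporter of arginine, rose too: Cish† by 2.03 (adjusted p = 0.000541), Socs2† by 1.35 (adjusted p = 0.00107) and the arginine transporter gene Slc7a2† by 4.01 (adjusted p = 1.88e-07). Slc7a2 belongs to the list of arginine, prostaglandin and leukotriene enzymes. The beta-glucan receptor gene Clec7a rose by a smaller 0.81 (adjusted p = 0.00665). Retnla†, another textbook gene of this state, was 10191, 15494 and 9295 CPM against 3639, 2239 and 3907 CPM (log2 change 1.84, SE 0.47, adjusted p = 0.0359), with the depleted libraries far apart. The mannose receptor gene Mrc1, which belongs to the list of resident macrophage genes below, was not called. Its level was 209, 194 and 199 CPM against 194, 217 and 226 CPM (log2 change -0.08, SE 0.12, adjusted p = 0.775). The lectin gene Cd209a was the only lower member of the alternative activation list. Its level was 17.5, 15.4 and 16.5 CPM against 94.6, 74.3 and 60.6 CPM (log2 change -2.21, SE 0.26, adjusted p = 3.29e-05). The calls of Ccl17, Clec7a and Retnla ended with the Rn18s-rs5 covariate, where the log2 changes were 3.20, 0.75 and 1.10 (adjusted p from 0.0578 to 0.476). That of Retnla ended with no filter on low counts, with the replicate number as a block and without any 1 of the 6 libraries (adjusted p from 0.0623 to 0.139). The list held 14 higher and 1 lower gene with the Rn18s-rs5 covariate and 17 to 20 higher genes when any 1 library was left out.

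The promoter of Pdcd1lg2 is shown because the gene rose in a list tied to STAT6. Its letters from 250 bases before to 50 bases after the start (chr19:29410669-29410968, plus strand, RefSeq, GRCm38.p6) hold 1 copy of TTC, any 4 bases and GAA, a spacing known for STAT6 sites, in capitals, 82 bases before the start. The motif was searched on both strands and added after the data were seen. It occurs in 5.32% of the 8972 promoters of tested genes that could be matched, in 34 of 441 promoters of higher genes (7.71%) and in 5 of 18 of the higher alternative activation genes (27.8%). Over all tested members of that list it was in 5 of 26 (19.2%). In other lists it was in 4 of 20 higher glycolysis and hypoxia genes (20.0%) and 4 of 21 lower antiviral genes (19.0%). It was in 1 of 12 lower resident macrophage genes (8.33%) and 0 of 11 higher interferon-gamma genes.
Pdcd1lg2: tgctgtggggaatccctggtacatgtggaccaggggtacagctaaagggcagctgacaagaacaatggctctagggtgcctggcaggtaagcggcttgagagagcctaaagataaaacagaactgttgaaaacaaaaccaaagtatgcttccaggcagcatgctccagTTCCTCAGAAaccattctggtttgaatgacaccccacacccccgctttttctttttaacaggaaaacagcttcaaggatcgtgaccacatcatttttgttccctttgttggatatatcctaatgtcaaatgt

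Genes of eosinophils, basophils and neutrophils were higher in the same depleted libraries. Of 15 markers of eosinophils, mast cells and basophils, 7 were tested and 6 were higher, with none lower, as in each alternative fit. Their summed level was 393, 689.5 and 569 CPM in depleted and 61.1, 37.6 and 40.0 CPM in control libraries (exact two-sided permutation p = 0.1, the smallest possible). Prg2 (chromosome 2, 84980461 to 84983632), the major basic protein of eosinophil granules, was 121, 240.4 and 168 CPM against 1.24, 2.67 and 3.88 CPM (log2 change 6.14, SE 0.34, adjusted p = 4.78e-09). Siglecf, a lectin of eosinophils and some macrophages, was 41.1, 104 and 76.0 CPM against 7.23, 4.72 and 4.48 CPM (log2 change 3.72, SE 0.35, adjusted p = 3.46e-06). The eotaxin receptor gene Ccr3 was 31.6, 108 and 80.9 CPM against 8.68, 8.01 and 1.79 CPM (log2 change 3.50, SE 0.45, adjusted p = 0.000198). All 3 genes were highest in depleted 2 and lowest, among the depleted, in depleted 1. The basophil protease gene Mcpt8 was 16.1, 28.1 and 31.6 CPM against 1.65, 0.616 and 2.69 CPM (log2 change 3.99, SE 0.49, adjusted p = 5.86e-05). Il4, the cytokine gene that basophils, eosinophils and T cells transcribe, was 15.0, 42.2 and 35.8 CPM against 3.92, 1.64 and 2.99 CPM (log2 change 3.43, SE 0.53, adjusted p = 0.00055). The eosinophil peroxidase gene Epx had 14 counts over the depleted and 0 over the control libraries, and the mast cell protease gene Cpa3 13 and 8, so both were too low to test.

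Eosinophil-associated ribonuclease genes, which macrophages also express, rose by 6.02 (adjusted p = 4.78e-09) for Rnase2a†, 2.58 (adjusted p = 7.79e-05) for Ear2† and 2.79 (adjusted p = 3.52e-05) for Ear1†. Rnase2a and Ear2 count among the 22 higher genes of the alternative activation list, so that list and the eosinophil genes are not separate. Rnase2a was 275, 322 and 268 CPM in the depleted and 7.02, 2.67 and 3.29 CPM in the control libraries. A dagger marks a gene of which at least 0.05 of the 31-base words occur in another annotated gene, so that its counts may be shared with a near copy, and these ribonucleases are such a family. Of 18 neutrophil markers 14 were tested, and 8 were higher and none lower (5 higher with the Rn18s-rs5 covariate), with a summed level of 1130, 2987 and 2661 CPM against 207, 258 and 244 CPM (exact two-sided permutation p = 0.1). Most of that sum was Retnlg†, a resistin-like gene of neutrophils, at 954, 2655 and 2284 CPM against 78.9, 70.8 and 80.3 CPM (log2 change 4.68, SE 0.30, adjusted p = 1.88e-07). The calprotectin gene S100a8 was 54.3, 98.7 and 128 CPM against 22.3, 19.9 and 24.8 CPM (log2 change 2.07, SE 0.29, adjusted p = 0.000217), and Cxcr2†, the chemokine receptor of neutrophils, 5.47, 7.43 and 6.91 CPM against 0.826, 0.821 and 1.49 CPM (log2 change 2.67, SE 0.42, adjusted p = 0.00053). Ly6g, the neutrophil surface marker, had 7 counts over the depleted and 1 over the control libraries.

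These markers moved together with the alternative activation genes, several of which eosinophils or neutrophils also transcribe, and their part in that rise was not tested. From depleted 1 to depleted 2, Prg2 went from 121 to 240.4 CPM and Retnlg from 954 to 2655 CPM. Of the alternative activation genes, Alox15 went from 119.8 to 352 CPM, Retnla from 10191 to 15494 CPM and Arg1 from 731 to 749 CPM. Chil3, of the monocyte list, went from 1713 to 1837 CPM. Depleted 3 lay between them for Prg2, Retnlg and Alox15, above both for Arg1 and below both for Retnla and Chil3. Fewer or more cells of a type and less or more RNA per cell cannot be told apart in such sorted bulk samples. T and NK cell markers (12 of 24 tested) had no called gene in edgeR, DESeq2 or limma-voom. They had 4 genes at an unadjusted p under 0.05, and the whole list summed to 104 to 117 CPM against 100.4 to 154 CPM. Of those too low to test, Cd8b1 had 25 counts in depleted and 6 in control libraries, and Cd5 17 and 1. Cd3e had 17 and 8, Cd8a 14 and 3 and Ifng 6 and 0. Zap70 (13 and 9), Tbx21 (9 and 8) and Ncr1 (7 and 6) differed by less. Gzmb (20 and 25), Klrb1c (17 and 22), Prf1 (8 and 9) and Eomes (1 and 3) went the other way. Of the 7 Treg markers 4 were tested, and Ikzf2 and Lrrc32, which other cells also express, were higher at 1.51 (adjusted p = 0.0195) and 1.50 (adjusted p = 0.0132). The Treg markers too low to test had fewer counts in the depleted libraries: Il2ra 9 against 23, Ctla4 3 against 5 and Foxp3 1 against 4. The calls of Ikzf2 and Lrrc32 ended with the Rn18s-rs5 covariate, where the log2 changes were 1.48 and 1.16 (adjusted p from 0.182 to 0.327). That of Ikzf2 ended in limma-voom and without depleted 2, depleted 3, control 1, control 2 or control 3 (adjusted p from 0.0558 to 0.133). That of Lrrc32 ended without control 3 or depleted 1 (adjusted p from 0.05 to 0.0749).

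**Figure D2:**
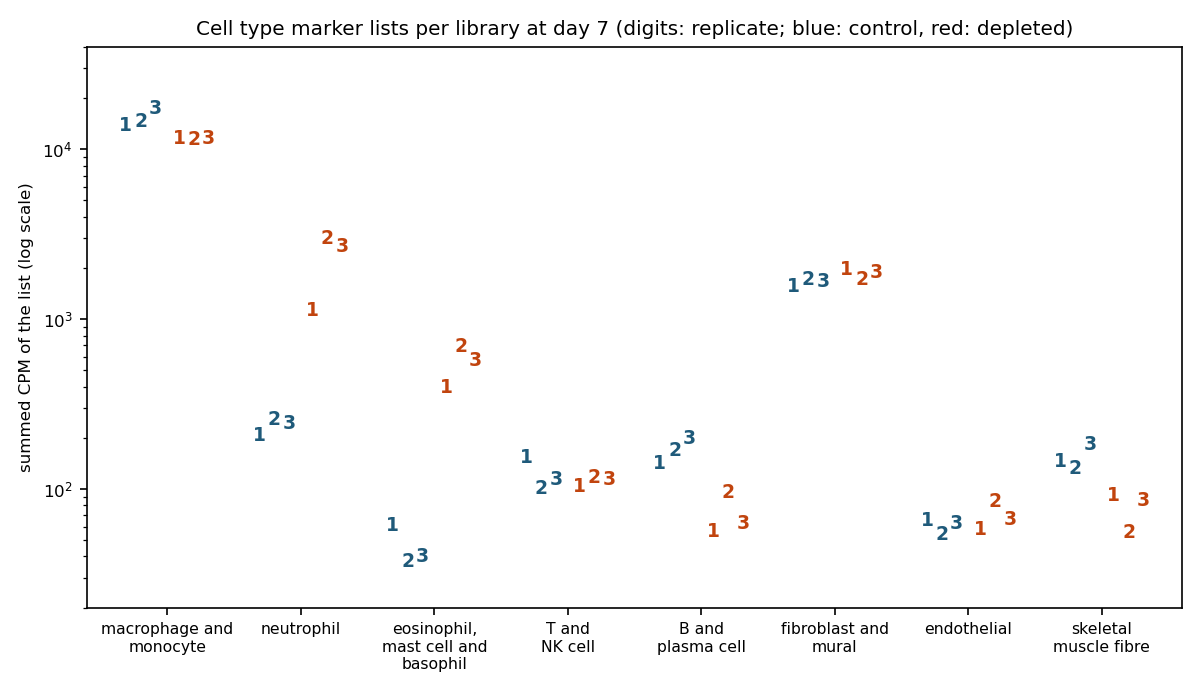
Summed CPM (log scale) of 8 cell type marker lists in each day 7 muscle library, with the digit giving the replicate, blue for control and red for depleted. The neutrophil list (1130 to 2987 CPM against 207 to 258 CPM) and the eosinophil, mast cell and basophil list (393 to 689.5 CPM against 37.6 to 61.1 CPM) separated the groups most, while the macrophage list was lower in the depleted libraries (11342 to 11560 CPM against 13745 to 17319 CPM).

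Genes of resident and perivascular macrophages fell. Of 29 tested, 17 were lower and 2 higher, with a median log2 change of -1.10 against -0.01 for all genes. Cd209f†, a lectin of perivascular macrophages, was 5.12, 10.1 and 2.93 CPM in depleted and 48.8, 63.0 and 59.1 CPM in control libraries (log2 change -3.28, SE 0.37, adjusted p = 3.03e-05). Gas6, the bridging ligand by which macrophages bind dying cells, was 38.8, 29.4 and 24.5 CPM against 99.98, 129 and 142 CPM (log2 change -1.99, SE 0.21, adjusted p = 1.11e-05). Folr2† (chromosome 7, 101839988 to 101857194), the folate receptor that marks resident macrophages of many tissues, was 126, 115 and 115 CPM against 282, 255 and 404 CPM (log2 change -1.40, SE 0.19, adjusted p = 0.000129). For these genes, picked in part for such separation, every control library lay above every depleted one. Hpgd, the enzyme that inactivates prostaglandin E2, was 4.23, 1.33 and 2.09 CPM against 22.1, 30.6 and 27.8 CPM (log2 change -3.31, SE 0.35, adjusted p = 1.08e-05). Hpgds, which makes prostaglandin D2, belongs to the list of arginine, prostaglandin and leukotriene enzymes and changed by -2.08 (adjusted p = 7.38e-06).

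Further members were lower: the endothelin receptor gene Ednrb changed by -2.16 (adjusted p = 0.000599), the carbonyl reductase gene Cbr2† by -1.52 (adjusted p = 0.000152), the scavenger receptor gene Stab1 by -1.23 (adjusted p = 0.000859), the transcription factor gene Maf† by -1.25 (adjusted p = 0.000257) and the coagulation factor gene F13a1 by -1.10 (adjusted p = 0.000485). The 2 that rose were the chemokine gene Ccl8, by 0.97 (adjusted p = 0.00578), and the growth factor gene Igf1, at 608, 429.5 and 653 CPM against 372, 359 and 401 CPM (log2 change 0.58, SE 0.16, adjusted p = 0.0303). Lyve1, a further marker of perivascular macrophages, was not called, at 20.1, 29.4 and 9.43 CPM against 17.4, 13.1 and 23.6 CPM (log2 change 0.13, SE 0.36, adjusted p = 0.898). Mrc1, also of this list and given above, was not called either. With the Rn18s-rs5 covariate 12 of the list were lower and 1 higher. The call of Ccl8 ended with the Rn18s-rs5 covariate, where the log2 change was 0.96 (adjusted p = 0.105). That of Igf1 ended in a fit of the 6 libraries alone and without depleted 1, depleted 3, control 1, control 2 or control 3 (adjusted p from 0.0517 to 0.144).

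Iron and haem handling, a task of the same cells, had 7 of 20 genes lower and none higher. Slc40a1, the iron exporter ferroportin, was 7.41, 5.57 and 7.54 CPM against 39.7, 71.0 and 36.7 CPM (log2 change -2.83, SE 0.32, adjusted p = 3.03e-05). Spic†, the transcription factor of iron-recycling macrophages, was 1.59, 4.51 and 3.98 CPM against 16.3, 30.0 and 23.9 CPM (log2 change -2.84, SE 0.35, adjusted p = 5.03e-05). The haem oxygenase gene Hmox1 was 49.4, 29.2 and 66.0 CPM against 109, 133 and 101 CPM (log2 change -1.24, SE 0.29, adjusted p = 0.0143). The call of Hmox1 ended with the Rn18s-rs5 covariate, where the log2 change was -0.99 (adjusted p = 0.221). That of Hmox1 ended without depleted 1 or control 2 (adjusted p from 0.052 to 0.0633). The list held 3 lower genes with the Rn18s-rs5 covariate, 3 without control 2, and 4 without depleted 1 or in a fit of the 6 libraries alone.

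Macrophage genes that depend on TGF-beta or belong with complement fell in part, 9 of 24 with none higher (median log2 change -0.51). Cx3cr1 (chromosome 9, 119901616 to 120069879), the fractalkine receptor, was 36.2, 39.5 and 34.6 CPM against 167, 193 and 187 CPM (log2 change -2.31, SE 0.14, adjusted p = 1.35e-08), with tight values in both groups. The lysophosphatidylserine receptor gene Gpr34 was 10.9, 16.2 and 5.24 CPM against 37.2, 35.7 and 46.3 CPM (log2 change -1.90, SE 0.26, adjusted p = 0.000139). Ms4a7, a membrane protein gene of mature macrophages, was 515, 398 and 439 CPM against 942, 1438 and 1567 CPM (log2 change -1.54, SE 0.18, adjusted p = 2.4e-05). The TGF-beta receptor gene Tgfbr1 changed by -0.78 (adjusted p = 0.00575). Apoe, the apolipoprotein of lipid-exporting macrophages, was 9830.5, 6507 and 7329 CPM against 13006, 15585 and 22707 CPM (log2 change -1.12, SE 0.26, adjusted p = 0.00994). The complement gene C1qa was 526, 365 and 505 CPM against 696, 535 and 1129 CPM and was not called (log2 change -0.76, SE 0.25, adjusted p = 0.0759). The calls of Tgfbr1 and Apoe ended with the Rn18s-rs5 covariate, where the log2 changes were -0.77 and -1.33 (adjusted p from 0.0726 to 0.0945). That of Apoe ended without control 3 (adjusted p = 0.0594). With the covariate 5 of the list were lower.

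Interferon targets were called in opposite directions in 2 lists. Of 37 interferon-gamma-inducible genes tested 13 were higher and none lower (median log2 change 0.92), whereas of 43 type I interferon antiviral genes 27 were lower and none higher (median -0.82). With the Rn18s-rs5 covariate 15 interferon-gamma genes were higher (median 1.31), and 4 antiviral genes were lower (median -0.60). Promoters of members from each set are shown because the same element, the interferon-stimulated response element core, stands in them. Each runs from 250 bases before to 50 after the start (RefSeq, GRCm38.p6), with the element in capitals. The core was searched as GAAA, any 2 bases and GAAA on both strands, so that it reads TTTC, 2 bases and TTTC on the other strand. The lower genes are Ifit3† (chr19:34583279-34583578, plus strand, sites 156 and 122 bases before the start) and Rsad2 (chr12:26456403-26456702, minus strand, 120 bases before). The higher genes are Gbp2 (chr3:142620413-142620712, plus strand, 59 bases before) and Socs1 (chr16:10785487-10785786, minus strand, overlapping sites 83 and 77 bases before).
Ifit3: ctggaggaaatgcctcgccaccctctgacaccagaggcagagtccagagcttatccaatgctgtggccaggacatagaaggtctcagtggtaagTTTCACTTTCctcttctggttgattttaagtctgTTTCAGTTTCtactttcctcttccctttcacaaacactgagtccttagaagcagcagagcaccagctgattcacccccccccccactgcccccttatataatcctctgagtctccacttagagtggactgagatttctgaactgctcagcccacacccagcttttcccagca
Rsad2: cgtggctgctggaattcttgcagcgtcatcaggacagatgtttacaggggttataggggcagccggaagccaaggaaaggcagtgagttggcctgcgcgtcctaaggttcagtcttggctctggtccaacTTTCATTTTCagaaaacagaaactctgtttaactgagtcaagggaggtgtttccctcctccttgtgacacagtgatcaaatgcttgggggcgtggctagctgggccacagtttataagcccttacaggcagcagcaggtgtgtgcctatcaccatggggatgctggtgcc
Gbp2: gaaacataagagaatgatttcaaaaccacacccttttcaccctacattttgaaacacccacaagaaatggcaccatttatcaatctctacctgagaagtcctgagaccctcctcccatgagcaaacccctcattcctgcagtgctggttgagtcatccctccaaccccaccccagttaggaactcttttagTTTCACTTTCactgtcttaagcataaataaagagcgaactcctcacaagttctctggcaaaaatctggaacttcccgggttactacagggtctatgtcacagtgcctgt
Socs1: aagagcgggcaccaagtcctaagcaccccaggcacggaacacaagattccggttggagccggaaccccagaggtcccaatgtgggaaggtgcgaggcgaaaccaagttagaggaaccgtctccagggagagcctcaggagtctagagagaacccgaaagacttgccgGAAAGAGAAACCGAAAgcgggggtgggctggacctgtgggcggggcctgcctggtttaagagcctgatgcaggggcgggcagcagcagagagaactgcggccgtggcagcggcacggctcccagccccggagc

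The element occurred in 3.44% of the 8972 matched promoters of tested genes, searched on both strands. It was in 11 of 21 matched promoters of the lower antiviral genes (52.4%) and in 5 of 11 of the higher interferon-gamma genes (45.5%). Over all tested members of these lists it was in 18 of 31 (58.1%) and 13 of 28 (46.4%), so the called members did not hold it more often. Over all called genes it stood in 24 of 378 lower (6.35%) and 19 of 441 higher promoters (4.31%). Its presence thus did not go with 1 direction.

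Among the antiviral genes, Ifit3, which binds viral RNA with its partners, was 16.4, 18.3 and 13.0 CPM in depleted and 57.8, 44.1 and 66.9 CPM in control libraries (log2 change -1.82, SE 0.25, adjusted p = 0.000157). Irf7 (chromosome 7, 141262706 to 141266481), the transcription factor that amplifies type I interferon, was 120.3, 164 and 168 CPM against 449, 309 and 656 CPM (log2 change -1.65, SE 0.23, adjusted p = 0.000193). Rsad2, which encodes viperin, was 31.2, 27.1 and 37.1 CPM against 85.9, 59.5 and 99.8 CPM (log2 change -1.35, SE 0.25, adjusted p = 0.00254). In all 3 genes, picked in part for such separation, the highest depleted library lay below the lowest control. The tetherin gene Bst2 fell by 1.00 (adjusted p = 0.00075), and Irf9, the DNA-binding subunit of the type I interferon complex, by 0.75 (adjusted p = 0.00172). The list's lower genes numbered 27 in all, 15 without depleted 1, 16 without control 1, 15 without control 3 and 4 with the covariate. The calls of Rsad2, Bst2 and Irf9 ended with the Rn18s-rs5 covariate, where the log2 changes were -0.80, -0.84 and -0.70 (adjusted p from 0.0612 to 0.207).

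Among the interferon-gamma-inducible genes, Gbp2, a guanylate-binding protein gene, was 134, 125 and 227 CPM against 33.1, 27.1 and 27.2 CPM (log2 change 2.47, SE 0.50, adjusted p = 0.0108). Serpina3g†, a protease inhibitor gene, was 85.2, 60.2 and 133 CPM against 7.02, 6.98 and 7.47 CPM (log2 change 3.70, SE 0.69, adjusted p = 0.00728). Acod1, whose enzyme makes itaconate, was 26.8, 63.7 and 64.7 CPM against 4.34, 4.52 and 3.58 CPM (log2 change 3.61, SE 0.38, adjusted p = 1.18e-05). Both feedback and checkpoint genes of the pathway rose: Socs1, the inhibitor of JAK signalling, by 1.69 (adjusted p = 0.00726), and Cd274†, which encodes PD-L1, by 1.46 (adjusted p = 0.0024). Tgtp1†, an interferon-inducible GTPase gene, rose by 1.60 (adjusted p = 0.00207). The chemokine gene Cxcl9 was 57.3, 13.8 and 81.7 CPM against 8.88, 8.01 and 7.47 CPM and was not called (log2 change 2.65, SE 0.81, adjusted p = 0.0791). The call of Socs1 ended with the Rn18s-rs5 covariate, where the log2 change was 1.96 (adjusted p = 0.0653). That of Gbp2 ended with no filter on low counts (adjusted p = 0.0535). In a fit of the 6 libraries alone 20 of the list were higher.

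Genes of antigen presentation through MHC class I were higher, with 11 of 22 genes called and none lower (median log2 change 0.64). Tap1, a subunit of the peptide transporter, was 168, 184 and 239.6 CPM against 96.3, 74.5 and 109 CPM (log2 change 1.08, SE 0.21, adjusted p = 0.00275). The immunoproteasome genes Psmb9 and Psmb10 rose by 0.89 (adjusted p = 0.00491) and 0.77 (adjusted p = 0.00643). MHC class II showed no such rise: of 13 genes 1 was called, the costimulatory gene Cd86, which fell by 0.93 (adjusted p = 0.00266), and H2-Ab1 was 8953, 6895 and 8254 CPM against 6704, 6084 and 9019 CPM (log2 change 0.14, SE 0.17, adjusted p = 0.691). The call of Cd86 ended with the Rn18s-rs5 covariate, where the log2 change was -0.86 (adjusted p = 0.0867). Of the MHC class I list 6 genes were higher without depleted 3, 7 without control 1 and 5 with the covariate.

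**Figure D3:**
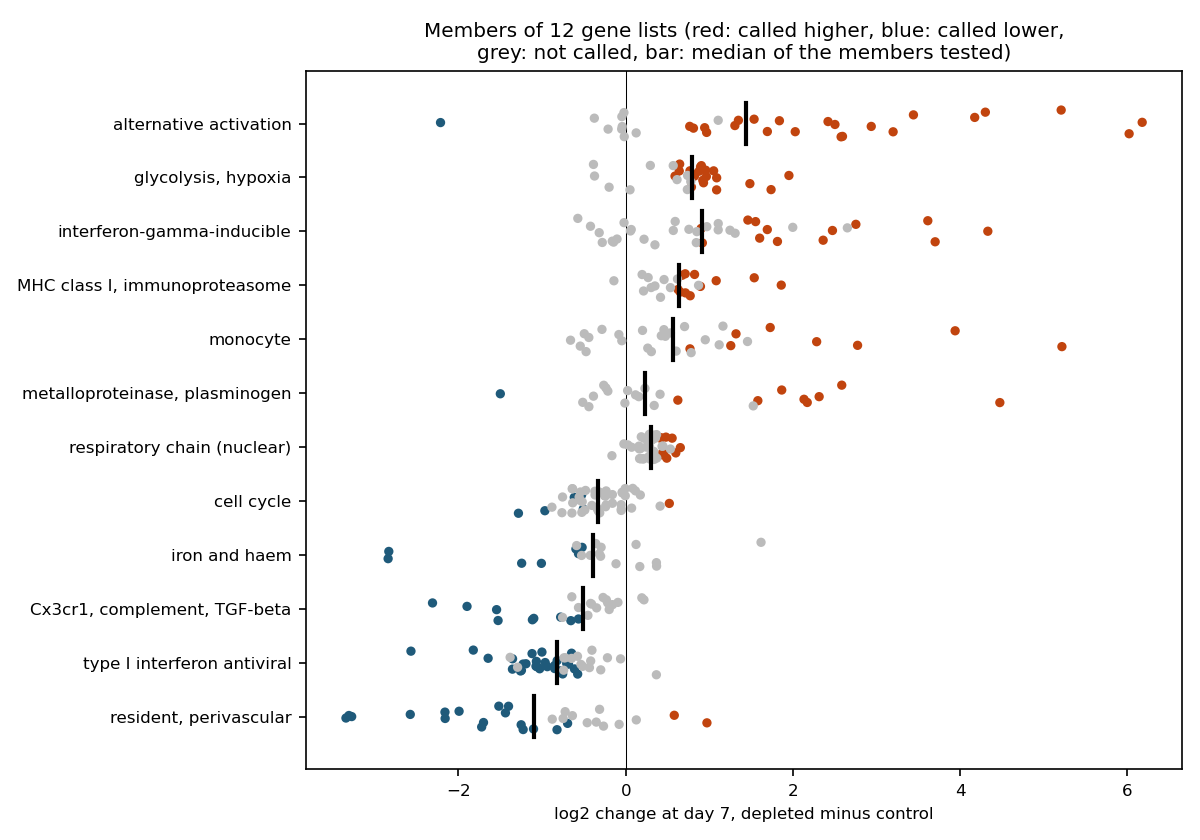
Each point is the log2 change of 1 gene at day 7 (depleted minus control, x axis) in 12 lists (y axis), red where called higher, blue where called lower and grey where not called, with a bar at the list's median. The alternative activation list (22 of 32 higher) and the glycolysis and hypoxia list (20 of 30 higher) lie to the right, and the type I interferon (27 of 43 lower) and resident macrophage lists (17 of 29 lower) to the left.

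Of the glycolysis and hypoxia response genes, 20 of 30 were higher, none lower and 10 not called, with a median log2 change of 0.79. Slc2a1, the glucose transporter GLUT1 at the entry of the pathway, was 46.6, 48.3 and 56.3 CPM in depleted and 26.6, 22.0 and 22.4 CPM in control libraries (log2 change 1.09, SE 0.24, adjusted p = 0.00612). The lactate dehydrogenase gene Ldha† was 1339.9, 1409.8 and 1422 CPM against 894, 694 and 819 CPM (log2 change 0.79, SE 0.14, adjusted p = 0.00165). The phosphoglycerate kinase gene Pgk1† was 294, 365 and 369.5 CPM against 188, 179.9 and 127 CPM (log2 change 1.05, SE 0.18, adjusted p = 0.00132). Slc16a3, the lactate exporter MCT4, was 238, 504 and 385 CPM against 140.1, 136 and 126 CPM (log2 change 1.48, SE 0.26, adjusted p = 0.00168). The groups did not overlap in any of these 4 genes, which were picked with their values known. Ero1a, an oxidase of the endoplasmic reticulum that hypoxia induces, rose by 1.74 (adjusted p = 0.00404). Vegfa, the vascular growth factor gene, belongs to the growth factor and muscle repair list and rose by 1.58 (adjusted p = 0.00575). The calls of Slc16a3, Ero1a and Vegfa ended with the Rn18s-rs5 covariate, where the log2 changes were 1.18, 0.92 and 0.74 (adjusted p from 0.103 to 0.353). With the covariate 11 of the glycolysis and hypoxia list were higher, and the median was 0.81.

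The promoter of Slc2a1 (chr4:119108495-119108794, plus strand, RefSeq, GRCm38.p6) is shown as that of the pathway's transporter. The hypoxia element core ACGTG, in capitals, begins 36 bases before the start. This short word, searched on both strands, was in 26.3% of all matched promoters, in 26.1% of those of higher genes and in 13 of 20 promoters of the higher glycolysis and hypoxia genes (65.0%). Over all tested members of that list it was in 18 of 29 (62.1%).
Slc2a1: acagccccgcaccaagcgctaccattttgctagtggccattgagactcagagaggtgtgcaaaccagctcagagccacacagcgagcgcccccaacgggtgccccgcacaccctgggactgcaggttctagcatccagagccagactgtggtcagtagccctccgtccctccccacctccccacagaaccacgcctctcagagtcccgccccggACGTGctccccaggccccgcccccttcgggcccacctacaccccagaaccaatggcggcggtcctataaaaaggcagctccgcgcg

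Of the nuclear-encoded respiratory chain, 10 of 46 genes were higher and none lower, with a median log2 change of 0.30. Cox8a, a subunit of cytochrome c oxidase, changed by 0.65 (adjusted p = 0.00194) and Uqcrh†, of complex III, by 0.60 (adjusted p = 0.00377). None of the 13 mitochondrially encoded transcripts was called by edgeR, with 7 at an unadjusted p under 0.05, 1 called by DESeq2 and 0 by limma-voom. The count for the nuclear genes ranged from 3 to 15 as single libraries were left out, with 5 without depleted 1, 15 without depleted 2, 3 without depleted 3, 3 without control 1 and 4 without control 2. A fit of the 6 libraries alone called 3.

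Inflammatory cytokines were mixed, with 7 of 33 genes higher and 5 lower. They numbered 4 and 4 without control 1, 4 and 3 without control 3, and 4 and 3 with the covariate. Inhba, the activin A subunit gene, was 36.5, 36.9 and 39.4 CPM against 2.07, 4.11 and 3.58 CPM (log2 change 3.53, SE 0.34, adjusted p = 3.56e-06). Il1rn, the interleukin-1 receptor antagonist, was 337, 643 and 531 CPM against 163, 199 and 194 CPM (log2 change 1.44, SE 0.20, adjusted p = 0.000175). The siderophore-binding lipocalin gene Lcn2 rose by 2.60 (adjusted p = 0.00273). Tnf was 17.6, 18.3 and 16.3 CPM against 35.1, 42.5 and 38.8 CPM (log2 change -1.16, SE 0.18, adjusted p = 0.000366). The cytokine gene Il18 fell by 1.29 (adjusted p = 0.00085). Il1b was 195, 159 and 249 CPM against 321, 302 and 326 CPM (log2 change -0.65, SE 0.16, adjusted p = 0.0169). Il10, the anti-inflammatory cytokine gene, was 2.82, 1.59 and 3.56 CPM against 6.61, 9.03 and 9.26 CPM (log2 change -1.60, SE 0.40, adjusted p = 0.0151). So the cytokine genes that fell included both Tnf and Il10. The calls of Il1b and Il10 ended with the Rn18s-rs5 covariate, where the log2 changes were -0.20 and -1.34 (adjusted p from 0.234 to 0.639). That of Il1b ended without depleted 2, control 1 or control 3 (adjusted p from 0.05 to 0.0609). That of Il10 ended without depleted 2, control 3 or control 2 (adjusted p from 0.0533 to 0.056). Nos2, the nitric oxide synthase gene, had 36 counts over the depleted and 2 over the control libraries and was too low to test.

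Genes of matrix turnover and the plasminogen system rose in part, 8 of 23 with 1 lower (6 and none with the covariate). The lower call also ended without depleted 2 or any 1 control. Timp1, the metalloproteinase inhibitor, was 137, 99.0 and 158 CPM against 29.5, 22.6 and 27.2 CPM (log2 change 2.31, SE 0.20, adjusted p = 1.21e-06). Serpinb2†, an inhibitor of plasminogen activators, rose by 4.47 (adjusted p = 0.00115). Mmp12†, the macrophage elastase, which belongs to the lipid-associated list, was 1252, 1200.2 and 1112 CPM against 401, 462 and 349 CPM (log2 change 1.56, SE 0.17, adjusted p = 1.47e-05). Of the growth factors and muscle repair genes, 7 of 25 were higher and 3 lower (3 and 2 with the covariate): Hbegf, an epidermal growth factor family gene, rose by 1.84 (adjusted p = 6.58e-05), and Gdf15, a stress-induced factor that supports regenerating muscle, fell by 1.64 (adjusted p = 0.000443). Muscle fibre genes, markers of another cell type, had 5 of 11 tested genes lower, and the whole list of 14 summed to 55.7 to 91.6 CPM in depleted and 132 to 182 CPM in control libraries. The lower fibre genes numbered 2 without depleted 2, 3 without control 2, 2 without control 3 and 1 with the covariate.

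Lipid-associated macrophage genes, which mark debris-laden cells, changed in a minority: 7 of 29 were higher and 2 lower (4 and 3 with the covariate). Lgals3, the galectin gene, was 7215, 6838 and 7018 CPM against 3648, 3856 and 3970.3 CPM (log2 change 0.88, SE 0.15, adjusted p = 0.000789). The integrin gene Itgax† rose by 1.06 (adjusted p = 0.00249). Trem2, the lipid receptor, was 456, 274 and 469 CPM against 385, 606 and 634 CPM (log2 change -0.44, SE 0.22, adjusted p = 0.27), and Spp1†, osteopontin, 2037, 2288 and 2289 CPM against 1170.3, 2023 and 2297 CPM (log2 change 0.27, SE 0.23, adjusted p = 0.563); neither was called. Monocyte genes had 8 of 30 higher and none lower, 14 higher and 1 lower without depleted 1, and 4 higher with the covariate. Chil3 was among the 8. Ly6c2†, the classical monocyte marker, was 153, 253 and 485 CPM against 108, 82.8 and 134 CPM and was not called (log2 change 1.46, SE 0.44, adjusted p = 0.0725). Cell cycle genes showed 5 of 47 lower and 1 higher, and only 1 to 3 lower when 1 library was left out and none with the covariate. Mki67, the proliferation marker, was 11.1, 11.1 and 7.12 CPM against 13.8, 22.2 and 8.96 CPM (log2 change -0.64, SE 0.30, adjusted p = 0.241). Of 31 sterol and fatty acid synthesis genes none was called by edgeR, with 8 at an unadjusted p under 0.05, 1 called by DESeq2 and 0 by limma-voom.

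At day 4 the same comparison called 20 genes (0.155%), 7 higher (0.0542%) and 13 lower (0.101%), of which 5 higher and 7 lower were called in the same direction at day 7. The test of the difference between days called 311 genes (2.41%), 205 with the effect more positive at day 7 (1.59%) and 106 with it more negative (0.821%). Among the 1109 genes called at day 7, 275 differed from day 4. The 311 became 69 with the Rn18s-rs5 covariate, 197, 191, 198 and 167 without day 4 depleted 2, depleted 3, control 1 and control 2, and 172 and 154 without day 7 control 2 and control 3. The alternative activation list had 14 of 32 genes with the more positive effect at day 7, and the glycolysis and hypoxia list 19 of 30. Their median log2 changes were -0.14 and -0.32 at day 4 and 1.44 and 0.79 at day 7. Arg1 was 155, 95.7 and 353 CPM in depleted and 161, 407 and 234 CPM in control libraries at day 4, where the groups overlapped (log2 change -0.41, adjusted p = 0.872). The control values of Arg1 at day 7 all lay below those at day 4, and the depleted values above. Of the resident list 8 of 29, and of the type I interferon list 3 of 43, had the more negative effect at day 7. For the interferon-gamma list, the median log2 change was 0.96 at day 4 and 0.92 at day 7, with 2 genes called higher at day 4 and 1 of 37 called different between days. Gbp2 at day 4 was 212, 44.8 and 86.2 CPM in depleted and 25.0, 38.9 and 34.9 CPM in control libraries (log2 change 1.79, adjusted p = 0.283). The heat shock gene Hspa1a† was lower at both days, with a log2 change of -2.51 at day 4 (adjusted p = 1.73e-07) and -1.97 at day 7 (adjusted p = 4.66e-07).

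**Figure D4:**
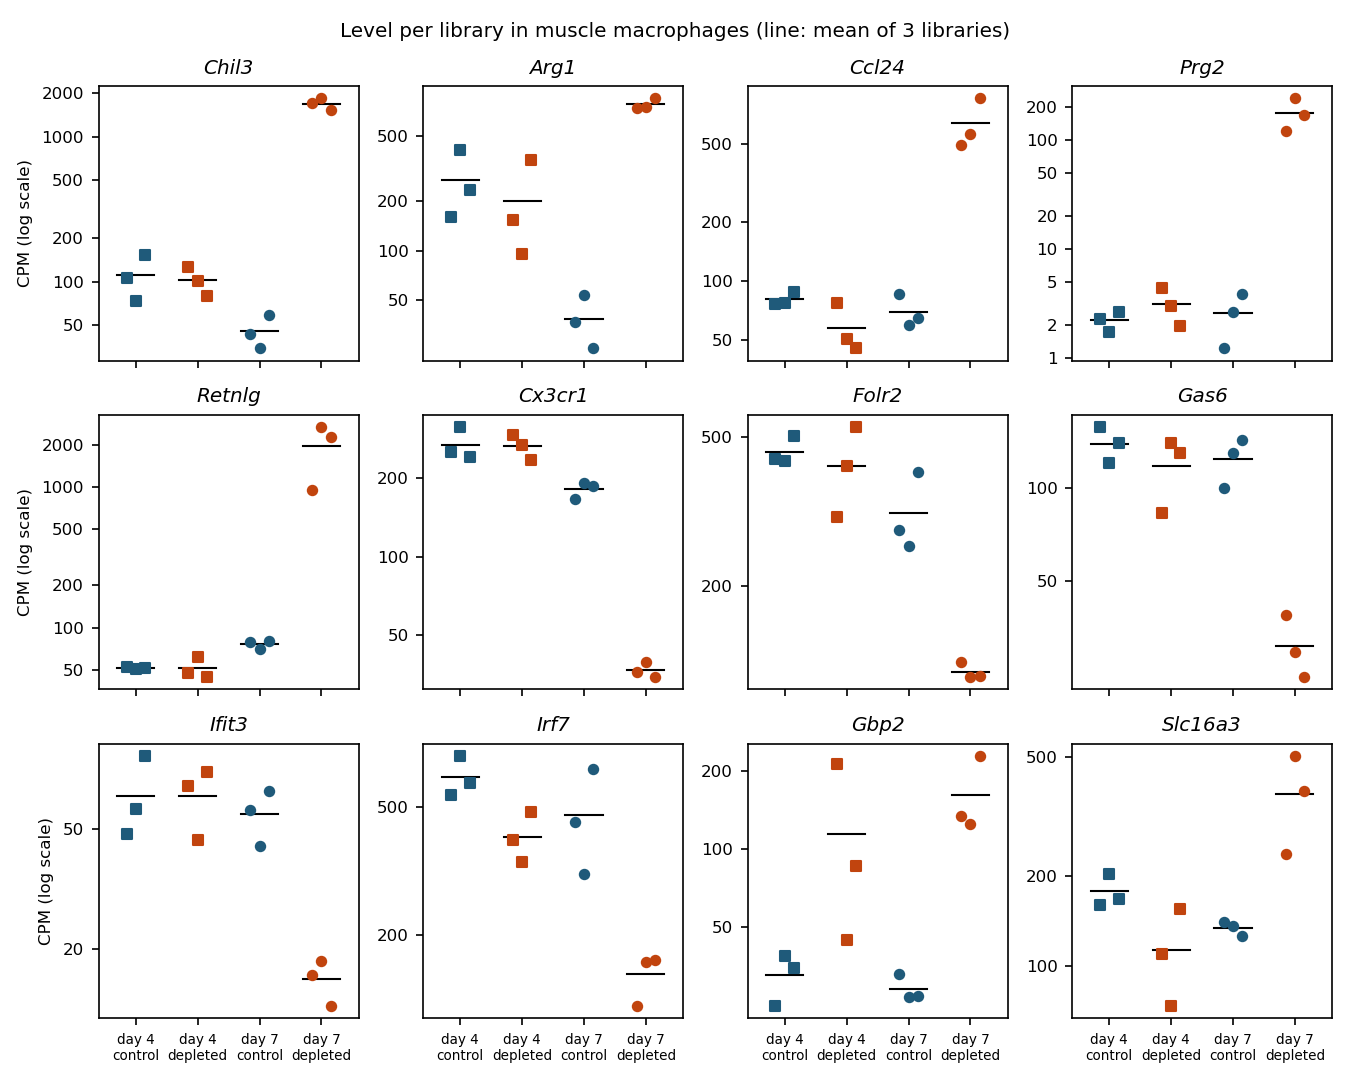
CPM (log scale) of 12 genes in each muscle library, squares for day 4 and circles for day 7, blue for control and red for depleted, with a line at the mean of 3. The groups are apart for all 12 genes at day 7, a separation that in part guided their choice. At day 4 they overlap except for Gbp2, whose depleted values lie above the controls, and Irf7 and Slc16a3, whose depleted values lie below them.

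**Figure D5:**
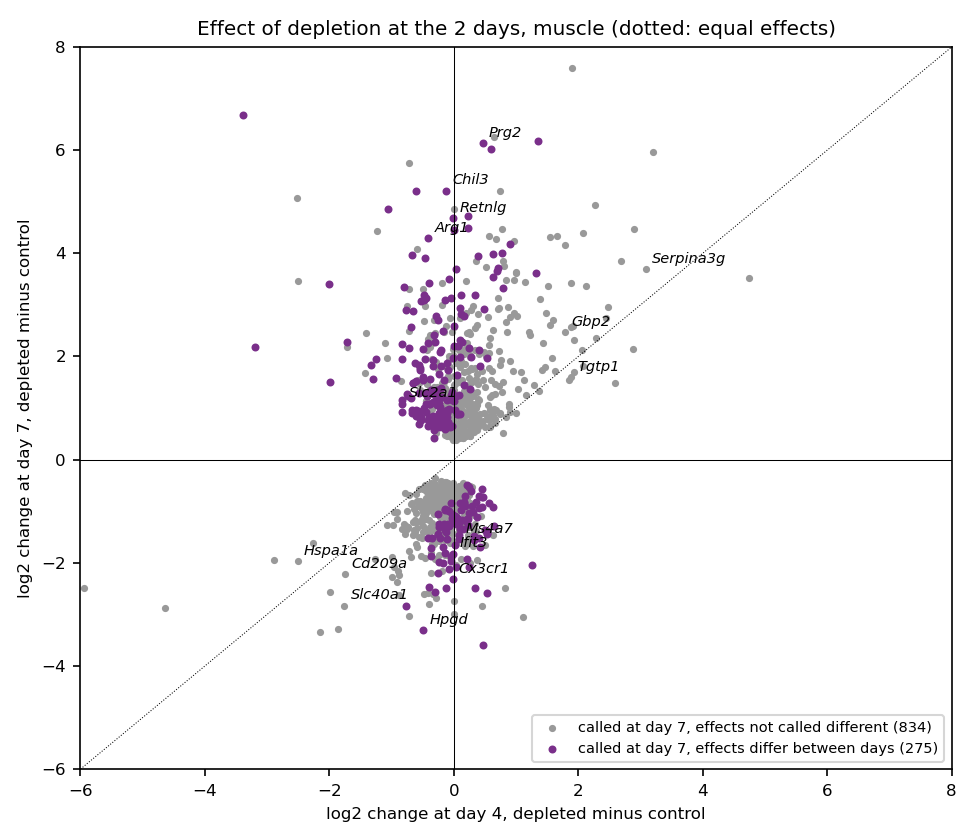
Log2 change (depleted minus control) at day 4 (x axis) against day 7 (y axis) for the genes called at day 7, with the 275 whose effects differed between the days in purple. Most purple points sit near 0 on the day 4 axis, whereas Gbp2, Tgtp1 and Serpina3g lie to the right of 0 at both days.

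The effect of depletion at day 7 also differed between tissues. At day 7 depletion called 11.3% of genes higher and 13.8% lower in bone, and 2.89% higher and 3.26% lower in skin. It differed between muscle and the skull defect for 1187 of 14340 genes (8.28%), more positive in muscle for 744 (5.19%) and more negative for 443 (3.09%). It differed between muscle and the skin wound for 398 (2.78%), 324 more positive in muscle (2.26%) and 74 more negative (0.516%), and for 251 without depleted 2. Of the alternative activation list, 19 of 32 were more positive in muscle than in bone and 3 than in skin. Chil3, of the monocyte list, rose in bone (1.84, adjusted p = 1.4e-05) and in skin (2.67, adjusted p = 1.96e-06) too, but by less than in muscle. Glycolysis and hypoxia genes were more positive in muscle than in bone for 22 of 30 and than in skin for 9. Cell cycle genes were more negative in muscle than in bone for 37 of 47, though within muscle 5 were lower and 1 higher, and none with the covariate. Mki67 differed by -2.19 from bone and was not called in muscle. Such a difference can come from the change in bone as well as from that in muscle.

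Of the 7 tested genes of the eosinophil, mast cell and basophil list, 3 had a more positive effect in muscle than in skin. Prg2 rose by 6.14 in muscle and changed by -2.43 in skin (adjusted p = 0.0219), and Ccr3 by 3.50 and -4.45 (adjusted p = 5.87e-06). Retnlg, the neutrophil gene, changed by 4.68 and -4.04 (adjusted p = 5.22e-05), and Alox15 by 4.17 and -1.99 (adjusted p = 0.0073). For each the difference between muscle and skin was called. The fall of Cx3cr1 was found in all 3 tissues: it changed by -2.49 in bone (adjusted p = 7.01e-12) and -2.92 in skin (adjusted p = 6.4e-11), and neither difference from muscle was called. Among resident macrophage genes, Folr2 fell further in bone (-3.05, adjusted p = 4.52e-10) than in muscle, with the difference called, and 8 of 29 list members were more positive in muscle than in bone and 1 more negative. Against skin 5 were more negative in muscle and none more positive, with a difference of -1.72 for Folr2. Type I interferon genes were more negative in muscle than in bone for 10 of 43 and than in skin for 6, with none more positive.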

How the data were processed

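RNA of sorted monocytes and macrophages was made into 3′ libraries with a dT primer and unique molecular identifiers, per the labels' protocols. No source used here says whether the identifiers were collapsed. The authors deposited estimated counts per gene for 57010 genes and 44 libraries, and 19.4 percent of the values above 0 were more than 0.01 away from any whole number. STAR, featureCounts and limma are named, without versions, and the builds GRCm38 and GRCm39 both listed, per the submitters' processing notes. All values were rounded for the test. Of the gene identifiers 52029 matched a table of gene names. Counts were tested in R 4.3.3 with edgeR 4.0.16 (TMM scaling, filterByExpr, robust quasi-likelihood fit, Benjamini-Hochberg adjustment over all genes, threshold 0.05). The 12 muscle libraries shared 1 fit for the comparisons within muscle, and the 44 libraries of 12 groups another for the differences from bone and skin. Alternatives used DESeq2 1.42.0, limma 3.58.1 (voom), RLE scaling, no filter, unrounded counts, the replicate number as a block, only the groups compared, each library left out, and log2 CPM of Rn18s-rs5 as a covariate. The tests were tested on simulated data, with the outcome not reported here. No pair of replicates looked like 1 library deposited again, as their counts differed by more than sampling noise (chi-square over its degrees of freedom 6.80 to 22.4). The column names carry 2 numbers of unstated meaning, which were not used.

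The comparison, the 27 gene lists and the 12 marker lists were chosen with earlier results of these data known. Genes were named from called genes with at least 5 CPM in a group and groups that do not overlap (the 15 largest changes in each direction and up to 4 members of each list with the smallest p) and a panel named whether called or not. Of the 144 genes this gave, the text prints a choice, with other list members and markers chosen after their values were seen, and the rest are not reported here. Coordinates are from GENCODE M21 (GRCm38). Promoters are from RefSeq (GRCm38.p6), the first listed per gene, matched by symbol for 8972 of 12894 tested symbols. Heart libraries, in another table, were not used here.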

Additional observations from a re-analysis of the deposited data

Results flagged for a closer look

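The genes below are named above or in the other observations at the end. Each had an effect of depletion at day 7 in muscle that differed from the effect at day 4 in muscle, or from the effect at day 7 in the skull or skin wound, by the test of the difference itself (edgeR interaction contrast, adjusted p under 0.05 over all genes). Each value is a difference of 2 log2 changes, and a positive value means a more positive effect in muscle at day 7. A difference can come from the other day or tissue alone: Spp1, Trem2, H2-Ab1, Csf1r, C1qa and Mki67 were not called in muscle at day 7. The comparison with day 4 uses other control libraries. The causes of these differences were not tested.

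Among genes of alternative activation, with Chil3 and Slc7a2 from other lists beside them, the difference in effect, day 7 minus day 4, was 5.33 for Chil3, 4.71 for Arg1, 3.68 for Ccl24, 3.27 for Alox15, 3.24 for Slc7a2, 3.16 for Retnla and 1.61 for Socs2. Between tissues, the effect in muscle minus that in bone was 4.96 for Arg1, 3.64 for Alox15, 3.38 for Chil3, 3.30 for Ccl24, 3.01 for Pdcd1lg2, 1.88 for Socs2, 1.87 for Flt1 and 1.15 for Clec7a. Against skin, the effect in muscle minus that in skin was 6.17 for Alox15, 3.95 for Arg1 and 2.54 for Chil3.

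Of the eosinophil, basophil, neutrophil and lymphocyte genes, the difference in effect, day 7 minus day 4, was 5.67 for Prg2, 5.42 for Rnase2a, 4.69 for Retnlg, 3.58 for Ccr3, 3.49 for Lrrc32, 3.35 for Mcpt8, 3.27 for Ear2, 3.08 for Ear1 and 3.01 for Siglecf. Between tissues, the effect in muscle minus that in bone was 6.41 for Prg2, 4.36 for Ccr3, 3.90 for Rnase2a, 3.62 for Retnlg, 3.09 for Siglecf, 2.79 for Ear1, 2.65 for Lrrc32 and 2.34 for Ear2. Against skin, the effect in muscle minus that in skin was 8.72 for Retnlg, 8.56 for Prg2, 7.97 for Ccr3, 6.73 for Siglecf and 3.11 for Ikzf2.

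Genes of resident macrophages, iron handling and the Cx3cr1 group follow, with Hpgds from the list of prostaglandin enzymes beside them. The difference in effect, day 7 minus day 4, was -2.82 for Hpgd, -2.32 for Hpgds, -2.29 for Cx3cr1 and -2.07 for Spic. It was -1.86 for Gpr34, -1.75 for Gas6, -1.63 for Ms4a7 and -1.27 for Folr2. For Stab1, Cbr2 and Maf it was -1.26, -1.10 and -1.02. Between tissues, the effect in muscle minus that in bone was 2.90 for Igf1, -2.58 for Slc40a1, 1.66 for Apoe, 1.65 for Folr2, 1.62 for Cbr2, 1.60 for Ms4a7, 1.51 for C1qa and -1.40 for F13a1. Against skin, the effect in muscle minus that in skin was -3.89 for Cd209f, -2.23 for Ednrb and -1.72 for Folr2.

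In interferon and antigen presentation genes, the difference in effect, day 7 minus day 4, was 2.29 for Acod1 and -1.81 for Ifit3. Between tissues, the effect in muscle minus that in bone was 2.52 for Acod1, 1.42 for H2-Ab1, -1.02 for Irf9 and -0.86 for Psmb9. Against skin, the effect in muscle minus that in skin was 4.23 for Acod1 and -1.25 for Bst2.

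Genes of glycolysis, hypoxia and the respiratory chain follow, with Vegfa from the growth factor and muscle repair list beside them. The difference in effect, day 7 minus day 4, was 2.51 for Vegfa, 2.28 for Ero1a, 2.14 for Slc16a3 and 1.91 for Slc2a1. It was 1.32 for Pgk1, 1.05 for Ldha and 0.68 for Cox8a. Between tissues, the effect in muscle minus that in bone was 2.64 for Vegfa, 2.41 for Slc16a3, 1.77 for Slc2a1, 1.57 for Ero1a, 1.30 for Ldha, 1.12 for Pgk1, 0.76 for Cox8a and 0.75 for Uqcrh. Against skin, the effect in muscle minus that in skin was 2.26 for Vegfa, 2.01 for Ero1a and 1.86 for Slc16a3.

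With cytokine, protease, growth factor and other genes, the difference in effect, day 7 minus day 4, was 2.97 for Ccl11, 2.91 for Inhba, 2.39 for Hbegf, 2.22 for Timp1, 1.93 for Mmp12, -1.37 for Tnf, 1.32 for Itgax, 1.29 for Il1rn, -1.22 for Il18 and 0.82 for Lgals3. Between tissues, the effect in muscle minus that in bone was 4.63 for Serpinb2, 3.65 for Itgb3, 3.41 for Il1rn, 3.09 for Spp1, 3.01 for Timp1, 2.96 for Mmp12, 2.94 for Inhba, 2.93 for Hbegf, -2.19 for Mki67, 1.93 for Itgax, 1.67 for Trem2, 1.57 for Lgals3, 1.51 for Clec4d and 0.98 for Csf1r. Against skin, the effect in muscle minus that in skin was 7.47 for Serpinb2, 3.57 for Inhba, 3.07 for Itgb3 and 2.12 for Il1rn.

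The opposite signs in muscle and skin were seen for Prg2, Siglecf, Ccr3, Retnlg and Alox15, each higher in muscle and lower in skin. In skin the log2 changes were -2.43 for Prg2 (adjusted p = 0.0219), -3.01 for Siglecf (adjusted p = 0.000122), -4.45 for Ccr3 (adjusted p = 5.87e-06), -4.04 for Retnlg (adjusted p = 5.22e-05) and -1.99 for Alox15 (adjusted p = 0.0073). Groups of 3 libraries are too small for a test of outlying samples.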

How the results depend on the processing

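The comparison at day 7 called 1109 genes, and 1119 with RLE scaling (1086 shared with the 1109), 1367 with no filter on low counts, 1292 with DESeq2, 1003 with limma-voom, 1111 with counts not rounded, 843 in a fit of the 6 libraries alone and 419 with the Rn18s-rs5 covariate. Leaving out 1 library gave 766 to 1129. The difference between days (311 genes) was 583 with no filter, 490 with DESeq2, 192 with limma-voom, 69 with the covariate and 154 to 453 without single libraries. The difference from skin (398 genes) was 629 with no filter and 251 to 457 without single libraries, the lowest without depleted 2, and the difference from bone (1187 genes) 839 to 1235. The cause of these shifts was not tested, apart from fewer or more genes and libraries entering the fit. The replicate number as a block gave 1044, 267, 1186 and 393 genes in the 4 comparisons. Same-numbered libraries correlated in their deviations at r = -0.03, 0.19 and 0.22 over 5662 genes. Differently numbered libraries correlated at r = -0.22 to 0.07, so the values of 0.19 and 0.22 lay above all of these. The numbers were not taken as pairs in the main fit, and whether any of them were pairs was not tested. Of 206 genes checked singly, 165 kept their call without each library in turn and 41 did not, 85 lost it with the covariate and none reversed. TMM and RLE scaling put the median of all genes at -0.01 and 0.00. Depth limits genes such as Foxp3, Nos2, Epx and Ly6g, which were too low to test.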

Other observations

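Further lists are given beside the 4.67% of all genes called higher and 3.92% called lower. Of 14 glucocorticoid-induced genes 5 were higher and 1 lower, among them Fkbp5, a chaperone of the glucocorticoid receptor, at 49.2, 23.3 and 19.9 CPM in depleted and 11.8, 7.80 and 12.8 CPM in control libraries (log2 change 1.53, SE 0.31, adjusted p = 0.0034). The call of Fkbp5 ended with the Rn18s-rs5 covariate, where the log2 change was 1.54 (adjusted p = 0.0844). With the covariate none of that list was called, and without control 2 or control 3 the higher genes numbered 2. Of 24 chemokine and receptor genes 5 were higher and 2 lower, and the eotaxin gene Ccl11 was 19.6, 14.6 and 16.3 CPM against 1.03, 1.44 and 1.49 CPM (log2 change 3.67, SE 0.36, adjusted p = 5.27e-06). The lower genes of that list numbered 1 without control 3 or with the covariate. Of 24 efferocytosis and scavenging genes 3 were higher and 3 lower, and 1 was lower in the fit of the 6 libraries alone and without depleted 2, depleted 3, control 2 or control 3. Itgb3, the beta 3 integrin gene, was 6.00, 10.3 and 11.5 CPM against 1.86, 1.44 and 0.597 CPM (log2 change 2.75, SE 0.47, adjusted p = 0.00101). Of 21 checkpoint and costimulatory ligand genes 4 were higher and 3 lower (3 and 1 with the covariate), the higher ones including both PD-1 ligands. Of 18 Fc gamma and C-type lectin receptor genes 2 were higher and 2 lower (1 and 1 with the covariate, and 1 higher without depleted 1, depleted 3, control 2 or control 3), and Clec4d, a lectin receptor of mycobacterial glycolipid, was 21.7, 18.6 and 30.6 CPM against 49.0, 83.6 and 69.3 CPM (log2 change -1.50, SE 0.22, adjusted p = 0.00023).

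Of 30 immediate early and dissociation response genes 3 were higher and 5 lower. With the covariate none was higher and 5 were lower, and 1 was higher without depleted 2, depleted 3 or control 3. Without depleted 1, 5 were higher and 3 lower. Of 20 heat shock genes 2 were lower and none higher (1 lower with the covariate). Of 38 lysosomal genes 2 were higher, a share near that of all genes, and 4 lower. Without control 1 none of them was higher, and without control 2 or control 3 2 were lower. Of 21 genes of arginine, prostaglandin and leukotriene enzymes 3 were higher and 1 lower. Among markers of other cells, 2 of 3 tested B and plasma cell genes were lower, with a summed level of 56.3 to 94.7 CPM against 141 to 197 CPM. Red cell and platelet markers summed to 419 to 540.5 CPM against 808 to 1200.2 CPM, with 2 of 8 higher and 1 lower. Pf4 belongs both to these markers and to the resident macrophage list, and its share of the sum is not given here. Fibroblast and mural markers had 3 of 16 higher, at 1704 to 1956 CPM against 1549 to 1716 CPM. Dendritic cell markers had 2 of 8 higher and 1 lower, endothelial markers 1 of 7 lower and myogenic progenitor markers 1 of 4 higher. Of the 12 macrophage and monocyte markers 1 was higher and 1 lower. With the covariate no gene was called in the lysosomal, red cell and platelet, fibroblast and mural, myogenic progenitor, or macrophage and monocyte lists, and 1 B and plasma cell gene was lower. Leaving out any 1 library gave 1 higher red cell and platelet gene. The higher myogenic call ended without depleted 1, control 1 or control 3, and without control 1 a gene of that list was lower. The part of these cells in the results was not tested.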
